A study of Mus musculus with 48 samples.

Results

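OCT4 loss at 16 h is the earlier of the time points at which OCT4-tetOff mouse embryonic stem cells (ESCs) were treated with doxycycline (DOX) or with water (H2O). It was chosen by the sample titles in the OCT4 count table of unsynchronised cells, which give DOX or H2O at 16 h, and comprises 4 of the 48 libraries of the series: 2 DOX libraries and 2 H2O libraries. Both groups carry the same OCT4-tetOff genotype and were grown in L2i medium, and the RNA measured had taken up 4-thiouridine (4SU) during a 30 min pulse, so that transcripts made in that window are read rather than the standing pool. DOX is thus the only stated difference between the groups. The promoter that drives the tetOff construct, and whether the counted reads of Pou5f1 come from it or from an endogenous copy, are not given in the sources used. No library of a cell line without the construct received doxycycline in this experiment, so an effect of doxycycline itself and an effect of OCT4 loss cannot be told apart. The remaining libraries are 4 from the same line at 24 h, with DOX or H2O, which are used below, and those of a FOXD3-iKO line, which are not used here.

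OCT4, encoded by Pou5f1, is a POU-domain transcription factor that binds DNA at an octamer motif, often beside SOX2, and without it a mouse embryo does not keep a pluripotent inner cell mass. In ESCs it sits in a network with NANOG, ESRRB, KLF and other naive factors, many of which regulate one another. Prolonged loss of OCT4 in ESCs is known for trophectoderm-like differentiation, and a change in the dose of OCT4 for endoderm-like differentiation. Tet-off systems silence a transgene when doxycycline is added.

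The 16 h libraries held 25700706 and 24620358 counts in DOX and 22039261 and 21113158 counts in H2O. 2 genes known to collect ribosomal RNA reads, Gm26917 and Gm42418, took 36.9% and 30.3% of these counts in DOX and 37.9% and 43.0% in H2O. Levels are CPM, the reads of a gene as a share of all reads scaled by TMM, and 3 counts, taken as the floor, equal 0.117 to 0.142 CPM in these libraries. The replicates had a Pearson correlation of log2 CPM across genes of 0.994 in DOX and 0.993 in H2O. Each gene was counted over its whole interval from start to end, so introns are included. Labels do not say that replicates were separate cultures, so the spread between replicates may be technical. P-values and standard errors rest on a spread fitted over all OCT4-tetOff libraries, including 24 h, not on the 16 h libraries alone. The median absolute log2 difference between replicates was 0.107 in DOX and 0.112 in H2O at 16 h. At 24 h it was 0.244 in DOX and 0.209 in H2O.

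Pou5f1 itself (mm10 chr17:35506018-35510772, plus strand) was at 78.8 and 79.6 CPM in DOX, against 221 and 226 CPM in H2O. Its log2 fold change was -1.50 ± 0.13 (SE; edgeR adjusted p = 7.3e-05, n = 2 libraries each). Both DOX libraries lay far below both H2O libraries, and nascent Pou5f1 RNA was still present in each. Per kilobase of gene interval this is a level of 16.6 CPM in DOX and of 47.0 CPM in H2O.

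Across 17713 genes that passed a filter on low counts, 2986 (16.9%) were called in edgeR's quasi-likelihood test, with p-values adjusted by Benjamini-Hochberg and a threshold of 0.05. Of these, 1407 (7.94% of those tested) were higher and 1579 (8.91%) lower in DOX. 1280 called genes differed by more than 2-fold, 600 of them higher and 680 lower. Past 8-fold there were 20 genes higher and 74 lower. The median log2 fold change of all tested genes was 0.00. A fit of the 4 libraries of 16 h alone, in which 16770 genes passed the filter, called 6506 genes. Leaving out DOX replicate 1 or 2 gave 1429 or 1370 calls, and leaving out H2O replicate 1 or 2 gave 1327 or 1373. Scaling to total counts alone moved the median of all genes to 0.15 and called 2392 genes higher and 1019 lower, so 70.1% of its calls were higher against 47.1% with TMM. Scaling to the total outside Gm26917 and Gm42418 called 1310 higher and 1322 lower.

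**Figure D1:**
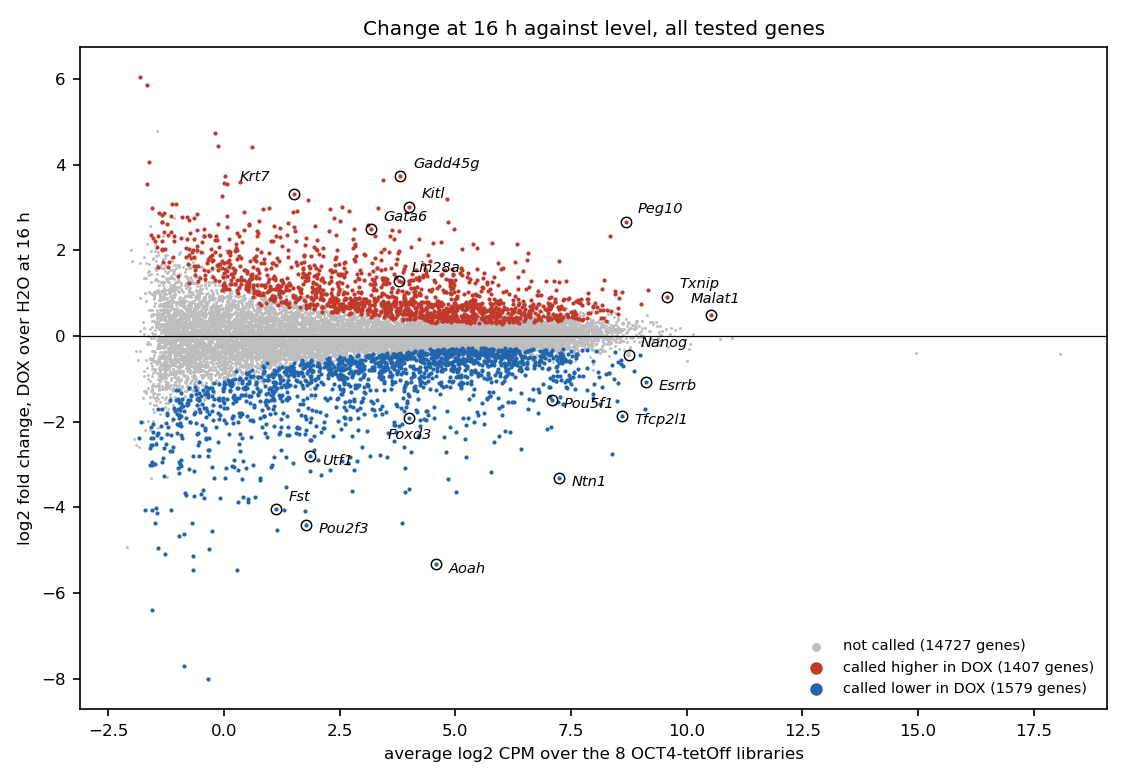
Log2 fold change (DOX over H2O at 16 h, vertical axis) against the average log2 CPM over the 8 OCT4-tetOff libraries (horizontal axis), 1 point per tested gene. Red points are the 1407 genes called higher in DOX, blue points the 1579 called lower and grey points those not called, and circled genes carry their symbols. The strongest decreases, such as Aoah at -5.33, reach further from 0 than the strongest increases among well measured genes, such as Gadd45g at 3.72.

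Of the 14 tested genes of the core list, which holds OCT4, its partners and other general pluripotency factors, 7 fell, 1 rose and 6 were not called, with a median log2 fold change of -0.42. The share called was 57.1%, where 16.9% of all tested genes were called, 7.94% as higher and 8.91% as lower. Utf1, a chromatin-associated factor of undifferentiated cells, was at 1.26 and 1.13 CPM in DOX, against 7.48 and 9.35 CPM in H2O (log2 fold change -2.81 ± 0.25, edgeR adjusted p = 7.6e-05). L1td1, an RNA-binding protein of ESCs, was at 53 and 51.4 CPM in DOX, against 224 and 230 CPM in H2O (log2 fold change -2.12 ± 0.10, adjusted p = 4.8e-06). Foxd3, the forkhead factor targeted in the FOXD3-iKO line, was at 9.48 and 7.80 CPM in DOX, against 29.2 and 36.4 CPM in H2O (-1.93 ± 0.17, adjusted p = 8.3e-05). In all of these both DOX libraries were below both H2O libraries. At 2 against 2 libraries this says little by itself, since the groups did not overlap for 68.3% of all tested genes, with DOX below H2O for 34.2%. The other decreases were smaller: Zscan10 with -0.93, Sall4 with -0.63 and Dppa4 with -0.40, all on the log2 scale.

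Nanog, which encodes the homeodomain factor of the same network, was not among the called genes. It was at 414.3 and 392.4 CPM in DOX, against 528 and 570 CPM in H2O (log2 fold change -0.44 ± 0.15, edgeR adjusted p = 0.075). Both DOX libraries were below both H2O libraries, as for 34.2% of all tested genes, and the difference missed the threshold. Rif1, Zfp281, Dppa2, Trim28 and Tcf3 were also not called, with log2 fold changes between -0.35 and -0.12. Lin28a, an RNA-binding protein that blocks let-7 maturation and is raised as cells leave the naive state, was the member that went up: it was at 16.5 and 16.6 CPM in DOX, against 7.29 and 6.21 CPM in H2O (1.29 ± 0.14, adjusted p = 0.00029).

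No count is available for Sox2 (mm10 chr3:34650405-34652461), whose protein binds DNA together with OCT4. It was listed at 0 in all 8 OCT4-tetOff libraries, and it lies inside Sox2ot on the same strand, which held 27556 counts. All 279 genes of at least 500 bp that lie inside a host gene of the same strand with at least 200 counts were likewise at 0, against 79 of 659 that lie inside a host of the other strand only. The 0 of Sox2 is therefore that of a nested gene in this counting, and no level is read from it. Sox2ot itself was at 130 and 144 CPM in DOX and at 174 and 172 CPM in H2O (log2 fold change -0.33 ± 0.11, edgeR adjusted p = 0.069).

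The naive pluripotency list moved furthest of the 33 lists examined. Of its 17 tested members 14 fell, none rose and 3 were not called, so 82.4% were called, against 16.9% of all tested genes. The median log2 fold change was -1.11, with members ranging from -2.93 to -0.08. Tcl1, a cofactor of AKT kinases, was at 1.62 and 2.03 CPM in DOX, against 14.3 and 13.6 CPM in H2O (-2.93 ± 0.19, edgeR adjusted p = 1.4e-05). Tfcp2l1, a transcription factor that maintains the naive state, was at 168 and 162 CPM in DOX, against 603 and 607 CPM in H2O (-1.87 ± 0.11, adjusted p = 1.1e-05). Esrrb, an orphan nuclear receptor, was at 405 and 374 CPM in DOX, against 815 and 826 CPM in H2O (-1.07 ± 0.12, adjusted p = 0.00026). The DOX and H2O libraries did not overlap for any of these, as for 68.3% of all tested genes.

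Within the Krüppel-like factors of the naive list, Klf2 was at 55.9 and 47.6 CPM in DOX, against 150 and 190 CPM in H2O (-1.71 ± 0.17, edgeR adjusted p = 0.00018). Klf5 was at 159 and 155 CPM in DOX, against 450 and 491 CPM in H2O (-1.58 ± 0.11, adjusted p = 2.2e-05). Klf4 was at 127 and 104 CPM in DOX, against 203 and 252 CPM in H2O (-0.97 ± 0.19, adjusted p = 0.0082), which was the smallest decrease of these paralogs and had the widest spread. Per kilobase of gene interval, the DOX levels of Klf2, Klf4 and Klf5 were 19.7, 21.7 and 9.61 CPM and their H2O levels 64.7, 42.7 and 28.8 CPM. Klf2 was thus above Klf4 per length in H2O but not in DOX. Gbx2, Nr0b1, Mybl2 and Tet2 fell by 2.18, 1.67, 1.51 and 1.44 on the log2 scale. Zfp42, the ESC marker also called REX1, Fgf4, Tbx3 and Prdm14 fell by 1.11, 0.94, 0.56 and 0.45. Those not called were Nr5a2 at -0.15, Sox15 at -0.60 and Nacc1 at -0.08, and Dppa3 held too few counts to be tested.

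**Figure D2:**
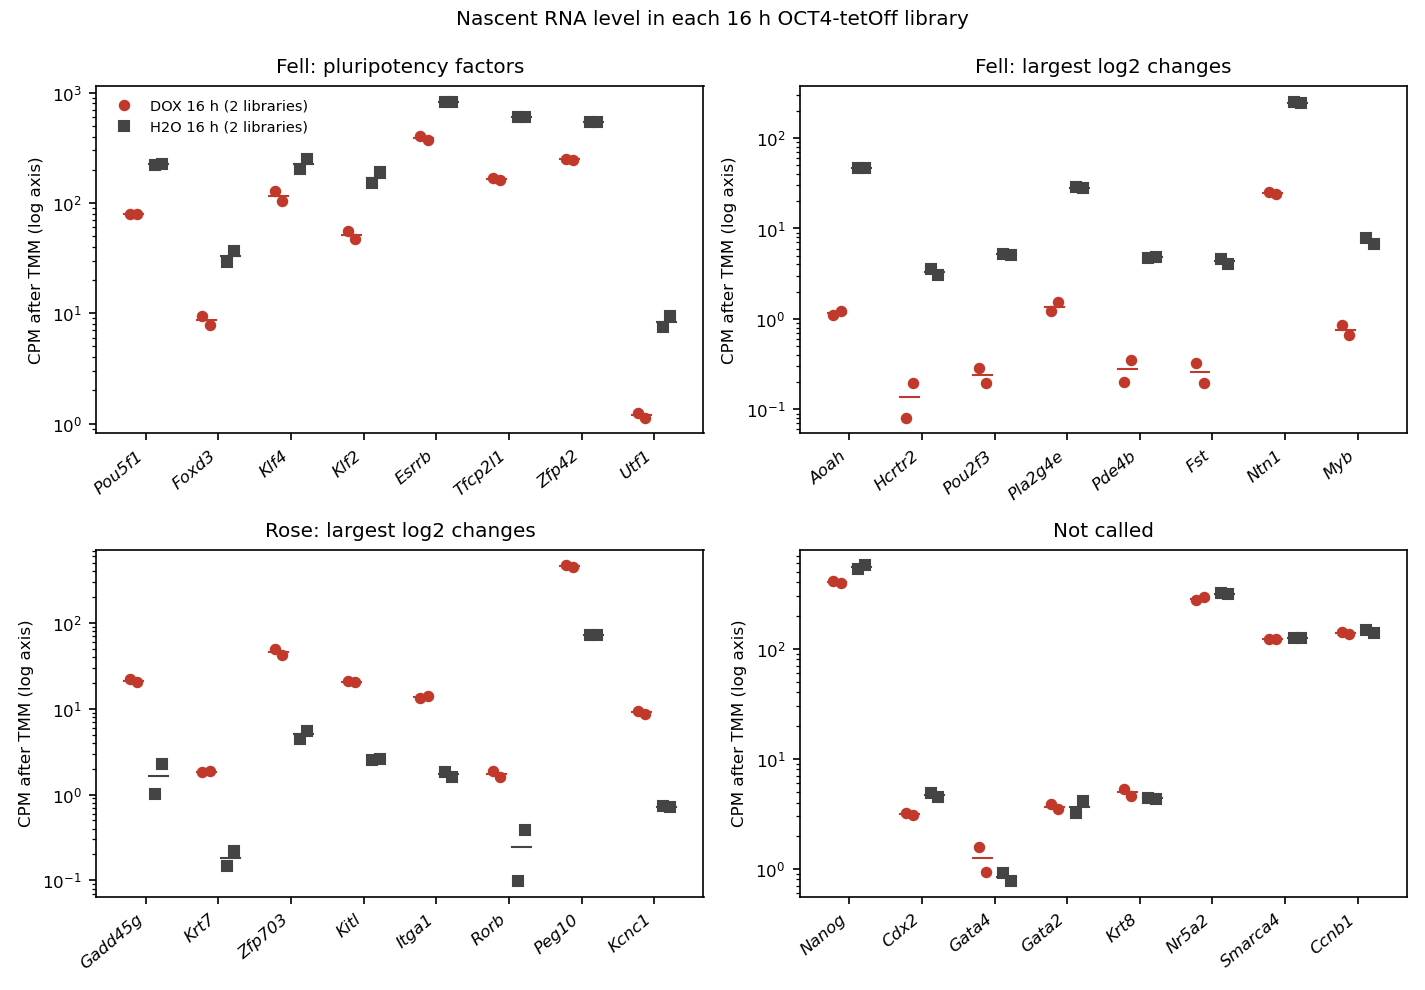
Level of nascent RNA in CPM after TMM scaling (log axis) in each 16 h library, for pluripotency factors that fell, for 8 of the genes with the largest decreases, for 8 of those with the largest increases, and for genes that were not called. Red circles are the 2 DOX libraries, dark squares the 2 H2O libraries and short lines their means. The replicates of a group lie close together next to the distance between groups for the genes that were called, while Nanog, at 414.3 and 392.4 CPM in DOX and at 528 and 570 CPM in H2O, shows a small step.

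OCT4 is 1 of 9 tested members of the POU family, of which 4 fell, none rose and 5 were not called. That is 44.4% called, beside 16.9% of all tested genes. Pou2f3, an octamer-binding factor known from tuft cells and skin, was at 0.283 and 0.195 CPM in DOX, against 5.25 and 5.11 CPM in H2O (log2 fold change -4.41 ± 0.28, edgeR adjusted p = 1.4e-05). Its DOX levels lie close to the floor of a library. Pou4f2, known from retinal ganglion cells, was at 0.243 and 0.195 CPM in DOX, against 1.26 and 1.87 CPM in H2O (-2.80 ± 0.37, adjusted p = 0.00077). The DOX levels of Pou4f2 are also close to the floor, so the size of its decrease is uncertain. Pou6f1 fell by 0.50. The broadly expressed Pou2f1, or OCT1, was at 177 and 194 CPM in DOX and at 231 and 208 CPM in H2O, and the difference was not called (-0.25 ± 0.18, adjusted p = 0.43). Pou2f2, Pou3f1 and Pou4f1 were not called either, with -0.30, -0.93 and 0.11.

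Among all genes, the largest decrease under the naming rule was that of Aoah (mm10 chr13:20794113-21036617), the enzyme that deacylates bacterial lipopolysaccharide. It was at 1.09 and 1.21 CPM in DOX, against 46.6 and 46.8 CPM in H2O (log2 fold change -5.33 ± 0.13, edgeR adjusted p = 8.1e-08). Next came Hcrtr2, an orexin receptor, with -4.54 and then Pou2f3. Pla2g4e, a phospholipase A2, had -4.37, Pde4b, a cyclic AMP phosphodiesterase, -4.08 and Tmem200a -4.07. In DOX Hcrtr2 had 2 and 5 counts, Tmem200a 3 and 7 and Pde4b 5 and 9. These lie under, at or near the floor of 3 counts, so the size and rank of their decreases are uncertain. Fst, or follistatin, which binds and neutralises activin, was at 0.324 and 0.195 CPM in DOX, against 4.62 and 4.07 CPM in H2O (-4.05 ± 0.38, adjusted p = 0.00012). Its 8 and 5 counts in DOX are also near the floor, so the size and rank of this decrease are uncertain too. The naming rule chose all the genes of this paragraph for groups that do not overlap.

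Ntn1, which encodes the guidance factor netrin-1, combined a large fold with a high level: it was at 25.6 and 23.9 CPM in DOX, against 251 and 242 CPM in H2O (-3.32 ± 0.19, edgeR adjusted p = 9.2e-06). Ttn, which encodes the muscle protein titin, was at 12.9 and 11.4 CPM in DOX, against 106 and 114 CPM in H2O (-3.17 ± 0.13, adjusted p = 2.2e-06). Syndig1, Slc7a3, Kirrel2, Myb and Slc9b2 completed the 14 largest decreases under that rule, with log2 fold changes from -3.64 to -3.16. Slc7a3 is a carrier of cationic amino acids and Myb a transcription factor of blood progenitors. By difference in CPM under the same rule, the largest losses were those of Jam2, a junctional adhesion molecule, at 84.6 and 86.1 CPM in DOX against 578 and 573 CPM in H2O, and of Cobl, an actin nucleator, at 194 and 213 CPM in DOX against 683 and 636 CPM in H2O. Tfcp2l1, Esrrb, Mybl2 and Klf5 followed.

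The largest increase under the naming rule was that of Gadd45g (mm10 chr13:51846678-51848468), a stress and growth-arrest protein. It was at 22 and 20.6 CPM in DOX, against 1.02 and 2.25 CPM in H2O (log2 fold change 3.72 ± 0.24, edgeR adjusted p = 1.6e-05). Its paralog Gadd45b rose by a smaller 0.59 ± 0.14 (adjusted p = 0.019), and Gadd45a was not called (-0.31 ± 0.14, adjusted p = 0.19). Zfp703 and Zfp503, zinc-finger corepressors of a single family, were both among the 14 largest increases. Zfp703 was at 49.6 and 41.9 CPM in DOX, against 4.47 and 5.55 CPM in H2O (3.19 ± 0.16, adjusted p = 5.2e-06). Zfp503 was at 4.29 and 3.71 CPM in DOX, against 0.340 and 0.550 CPM in H2O (3.17 ± 0.39, adjusted p = 0.00054).

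A ligand and its receptor moved in opposite directions. Kitl, the ligand also called stem cell factor, was at 21.1 and 20.4 CPM in DOX, against 2.53 and 2.58 CPM in H2O (log2 fold change 3.02 ± 0.19, edgeR adjusted p = 1.4e-05). Kit, its receptor tyrosine kinase, was at 192 and 186 CPM in DOX, against 428 and 438 CPM in H2O (-1.20 ± 0.13, adjusted p = 0.00024). The pair was put together after the values were seen. Kcnc1, a potassium channel, Itga1, a collagen-binding integrin, Lypd6b, Rbm24, an RNA-binding splicing factor, Tmprss2, a membrane protease, Rorb, a nuclear receptor, and Pcp4l1 were other large increases, with log2 fold changes from 2.76 to 3.64. Rorb had 2 and 7 counts in H2O, under and near the floor of 3 counts. Peg10 had the highest level of the 14, and with Malat1, Txnip, Chka, Pam and Ak4 it made up the 6 largest gains in CPM under the naming rule. Malat1, a nuclear noncoding RNA, was at 1527 and 1583 CPM in DOX and at 1203 and 1023 CPM in H2O (0.48 ± 0.13, adjusted p = 0.034). Pam, the enzyme that amidates peptides, was at 354 and 391 CPM in DOX and at 75.6 and 71.6 CPM in H2O (2.34 ± 0.20, adjusted p = 7.2e-05).

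The trophectoderm list, the lineage of the future placenta, was mixed. Of 21 tested members 10 rose, 3 fell and 8 were not called, with a median log2 fold change of 0.60. Called members were 61.9%, where 7.94% of all tested genes were called higher and 8.91% lower. Gata3, a zinc-finger factor of trophoblast, was at 34.5 and 33.6 CPM in DOX, against 11.5 and 11.8 CPM in H2O (1.55 ± 0.11, edgeR adjusted p = 2.6e-05). Krt7, a keratin of simple epithelia, was at 1.82 and 1.87 CPM in DOX, against 0.146 and 0.220 CPM in H2O (3.32 ± 0.35, adjusted p = 0.00024), where the H2O levels are near the floor. Krt19 had 2.33, Esx1 1.97, Dlx3 1.85, Plac1 1.59, Msx2 0.71, Eomes 0.60, Tfap2c 0.58 and Cldn4 0.58, all on the log2 scale and all called.

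Cdx2, the homeobox factor that OCT4 opposes in the early embryo, did not rise. It was at 3.24 and 3.08 CPM in DOX and at 4.91 and 4.51 CPM in H2O (-0.58 ± 0.25, edgeR adjusted p = 0.16), with both DOX libraries below both H2O libraries, as for 34.2% of all tested genes, and the difference missed the threshold. Tfap2a, Tead4 and Ets2, other trophectoderm factors, fell by 1.19, 0.81 and 0.43. Gata2 at 0.01, Krt8 at 0.18, Krt18 at 0.81, Hand1 at 1.72, Id2 at 0.78, Ascl2 at -0.10 and Lgals3 at -0.57 were not called. Elf5 and Krt23 were among those not tested because of low counts.

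In the primitive endoderm list 8 of 13 tested members rose, 1 fell and 4 were not called, with a median of 0.76. The share called was 69.2%, against 16.9% of all tested genes. Gata6, the factor that sets up this lineage, was at 10.2 and 11.2 CPM in DOX, against 1.70 and 2.14 CPM in H2O (log2 fold change 2.48 ± 0.16, edgeR adjusted p = 1.5e-05). Col4a1 and Col4a2 encode basement membrane collagen IV and overlap at their starts on opposite strands, from 11312805 to 11312826 of chromosome 8. Col4a1 was at 82.0 and 82.2 CPM in DOX, against 17.3 and 19.5 CPM in H2O (2.16 ± 0.13, adjusted p = 1.2e-05), and Col4a2 at 61.7 and 59.0 CPM in DOX, against 15.7 and 13.1 CPM in H2O (2.06 ± 0.14, adjusted p = 1.8e-05). Lamb1, a laminin chain, rose by 1.38 ± 0.08 (adjusted p = 1.2e-05). Gata4, which acts beside GATA6, was at 1.58 and 0.937 CPM in DOX and at 0.923 and 0.770 CPM in H2O, and was not called (0.56 ± 0.39, adjusted p = 0.39).

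The keratin and epithelial junction list, which shares members with the trophectoderm list, had 7 of 17 tested members higher and 1 lower, with a median of 0.58. This is 47.1% called, against 16.9% of all tested genes. Dsp, which encodes desmoplakin, rose by 0.79 ± 0.12 (edgeR adjusted p = 0.0017), and Jup, which encodes plakoglobin, fell by 0.91 ± 0.09 on the log2 scale (adjusted p = 0.00013). Among imprinted genes, those read from a single parental copy, 6 of 16 rose and 1 fell (43.8% called), with a median of 0.37. Peg10, a retrotransposon-derived gene needed for the placenta, was at 469 and 450 CPM in DOX, against 72.1 and 72.5 CPM in H2O (2.67 ± 0.14, adjusted p = 6.3e-06). Sgce starts 98 bp away on the other strand and was at 45.8 and 50.3 CPM in DOX, against 20.4 and 17.5 CPM in H2O (1.34 ± 0.19, adjusted p = 0.0011). Mest and Rian rose by 0.75 and 0.76.

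**Figure D3:**
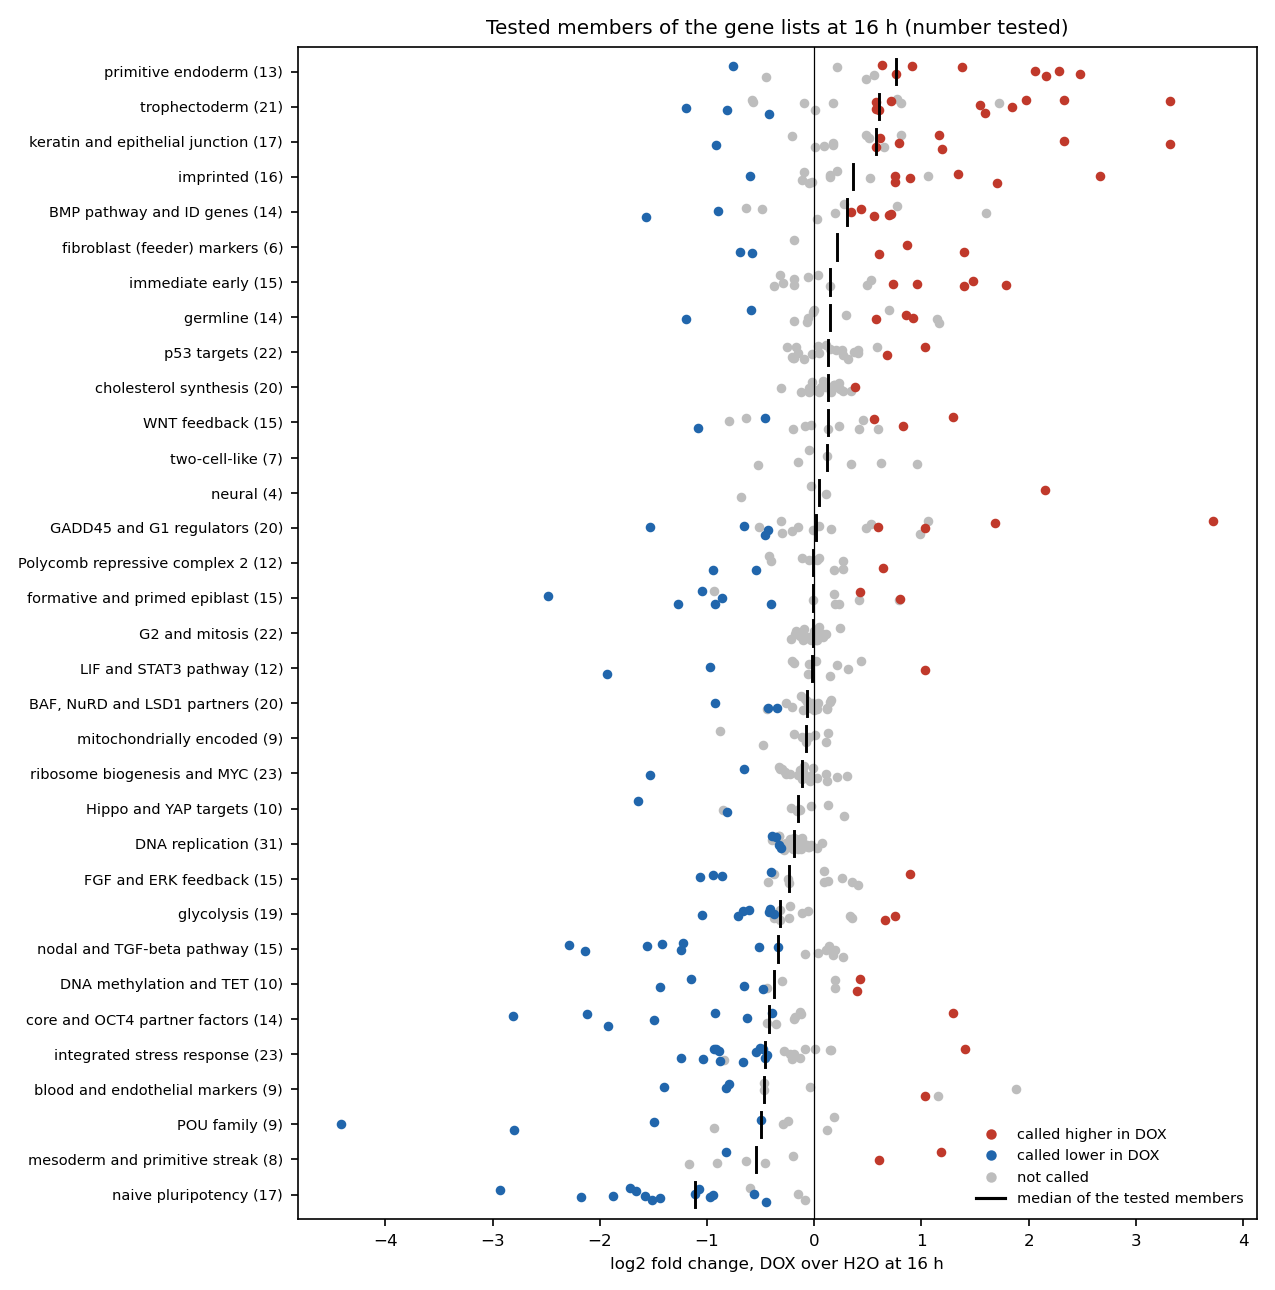
Log2 fold change (DOX over H2O at 16 h, horizontal axis) of every tested member of the 33 gene lists, with the number tested in parentheses and lists ordered by their median (black bar). Red members were called higher in DOX, blue members lower, and grey members were not called. The naive pluripotency list has its median at -1.11 and no member called higher, while the trophectoderm list holds members called in both directions around a median of 0.60.

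Other embryonic programmes changed less uniformly. In the formative and primed epiblast list 6 of 15 members fell and 2 rose, with a median of -0.01. There 53.3% were called, against 16.9% of all tested genes. Among the decreases, the zinc-finger factor Zic5 was at 15.6 and 17 CPM in DOX, against 38.1 and 40.2 CPM in H2O (log2 fold change -1.27 ± 0.10, edgeR adjusted p = 4.2e-05), and its relative Zic2 fell by 1.05. Of 8 tested mesoderm and primitive streak genes, 2 rose and 1 fell (37.5% called), with a median of -0.55. Wnt3 had 1.19 ± 0.25 (edgeR adjusted p = 0.011). Only 4 of the 14 neural genes could be tested, of which Pax3 rose by 2.15 ± 0.52 (adjusted p = 0.020). Pax3 had 3 and 5 counts in H2O, at and near the floor of 3 counts. In the germline list 3 of 14 rose, among them Ddx4 with 0.92, and 2 fell (35.7% called), with a median of 0.15. None of 7 two-cell-like genes was called, with a median of 0.12.

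Signalling genes were read by ligand, receptor and target. In the nodal and TGF-beta list, 8 of 15 fell and none rose, with a median of -0.34. Members called lower were thus 53.3%, against 8.91% of all tested genes. Lefty2, a secreted inhibitor and target of nodal, was at 1.17 and 1.405 CPM in DOX, against 6.46 and 6.21 CPM in H2O (log2 fold change -2.29 ± 0.19, edgeR adjusted p = 6.7e-05). Tdgf1, the coreceptor also called Cripto, was at 32.7 and 30.5 CPM in DOX, against 86.0 and 101 CPM in H2O (-1.56 ± 0.15, adjusted p = 0.00013). Pcsk6, a convertase that processes nodal, fell by 1.42, and the ligand Gdf3 by 1.24. The intracellular Smad2, Smad3 and Smad7 were not called, with 0.11, 0.27 and 0.03. These 3 SMAD genes were chosen for mention after their values were seen.

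In the BMP and ID list 5 of 14 rose and 2 fell, with a median of 0.31. This is 50% called, against 16.9% of all tested genes. Id3, a target of BMP that inhibits basic helix-loop-helix factors, was at 11 and 9.01 CPM in DOX, against 28.9 and 30.5 CPM in H2O (log2 fold change -1.57 ± 0.15, edgeR adjusted p = 0.00012), and the ligand Bmp4 fell by 0.89 ± 0.15 (adjusted p = 0.0034). Its relative Id4 went the other way, with 0.70 ± 0.16 (adjusted p = 0.016). In the FGF and ERK list 4 of 15 fell and 1 rose (33.3% called), with a median of -0.24. Fgf4, the main FGF ligand of ESCs, was at 120 and 104 CPM in DOX, against 200 and 230 CPM in H2O (-0.94 ± 0.18, adjusted p = 0.0058). The ETS factors Etv1 and Etv5 fell by 1.07 and 0.86.

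Of 15 WNT feedback genes 3 rose and 2 fell, with a median of 0.13. This is 33.3% called, against 16.9% of all tested genes. Sp5 and Axin2, direct targets of beta-catenin, were among those higher, and Cdx1 and Ccnd1 were those lower. Sp5 was at 80.5 and 67.8 CPM in DOX, against 28.3 and 32.1 CPM in H2O (log2 fold change 1.30 ± 0.12, edgeR adjusted p = 0.00013), and Axin2 at 242 and 243 CPM in DOX, against 135 and 138 CPM in H2O (0.83 ± 0.10, adjusted p = 0.00047). Cdx1 fell by 1.09 and Ccnd1, or cyclin D1, by 0.46. In the LIF and STAT3 list 1 of 12 rose and 2 fell (25% called), with a median of -0.02. The feedback inhibitors Socs2 and Socs3 differed in direction: Socs2 was at 10.2 and 10.5 CPM in DOX, against 39.3 and 39.4 CPM in H2O (-1.93 ± 0.10, adjusted p = 6.2e-06), and Socs3 at 64.1 and 48.1 CPM in DOX, against 21.5 and 33.5 CPM in H2O (1.03 ± 0.25, adjusted p = 0.023). In the Hippo list 2 of 10 fell, Ccn2 by 1.64 and Tead4 by 0.81, with a median of -0.15, or of 0.0050 when scaled to total counts. Its share called was 20%, against 16.9% of all tested genes.

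None of 22 G2 and mitosis genes was called, with a median of -0.01. Of 31 DNA replication genes 4 fell and none rose, with a median of -0.19. This is 12.9% called lower, where 8.91% of all tested genes were called lower and 16.9% in either direction. They were Pold1, Gins2, Mcm10 and Pola2, at -0.39, -0.36, -0.33 and -0.31. In the GADD45 and G1 list 4 of 20 rose and 4 fell (40% called), with a median of 0.02. Ccnd2, or cyclin D2, rose by 1.68 ± 0.21 (edgeR adjusted p = 0.00052). Cdkn1a, the inhibitor of cyclin-dependent kinases also called p21, was at 481 and 464 CPM in DOX, against 220 and 240 CPM in H2O (1.04 ± 0.12, adjusted p = 0.00036). It is also a p53 target. Of the 22 p53 targets Cdkn1a and Plk2 rose and none fell, and the list median was 0.13. This is 9.09% called higher, where 7.94% of all tested genes were called higher and 16.9% in either direction. Myc, the growth regulator, was at 6.03 and 4.68 CPM in DOX, against 13.9 and 17 CPM in H2O (-1.53 ± 0.25, adjusted p = 0.0026), and Mycn fell by 0.66. Both are also in the ribosome biogenesis list, where they were the only 2 of 23 members called (8.70%) and the median was -0.11, or 0.049 when scaled to total counts.

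In the immediate early list 5 of 15 rose and none fell, with a median of 0.15. Members called higher were thus 33.3%, against 7.94% of all tested genes. Jun was at 20.2 and 19.3 CPM in DOX, against 7.19 and 6.87 CPM in H2O (log2 fold change 1.49 ± 0.18, edgeR adjusted p = 0.00044), and Fosl2, Fos and Zfp36 rose by 1.79, 1.4 and 0.96. The integrated stress response list, which responds to amino acid shortage through ATF4, had 12 of 23 members lower and 1 higher, with a median of -0.46. This is 56.5% called, against 16.9% of all tested genes. The enzymes of serine and asparagine synthesis were among those lower: Asns was at 221 and 225 CPM in DOX, against 416 and 407 CPM in H2O (-0.88 ± 0.12, adjusted p = 0.00079), and Phgdh at 11.9 and 11.4 CPM in DOX, against 23.6 and 21.2 CPM in H2O (-0.94 ± 0.11, adjusted p = 0.00035). Stc2 and Cth fell by 1.24 and 0.92.

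In glycolysis 7 of 19 genes fell and 2 rose, with a median of -0.32. This is 47.4% called, against 16.9% of all tested genes. The hexokinases changed in opposite directions: Hk2 was at 109 and 104 CPM in DOX, against 210 and 231 CPM in H2O (log2 fold change -1.05 ± 0.10, edgeR adjusted p = 0.00014), and Hk1 at 64.9 and 65.5 CPM in DOX, against 37.5 and 39.9 CPM in H2O (0.75 ± 0.09, adjusted p = 0.00040). The glucose carrier Slc2a1 rose by 0.66, and Pfkl, a phosphofructokinase, fell by 0.66. In cholesterol synthesis 1 of 20 genes, Hmgcs1, rose and none fell (5% called), with a median of 0.13. None of 9 mitochondrially encoded transcripts was called, with a median of -0.07, or of 0.086 when scaled to total counts.

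Among DNA methylation genes 4 of 10 fell and 2 rose, with a median of -0.37. This is 60% called, against 16.9% of all tested genes. Tet2, an enzyme that oxidises methylcytosine, was at 127 and 130 CPM in DOX, against 347 and 351 CPM in H2O (log2 fold change -1.44 ± 0.12, edgeR adjusted p = 5.5e-05), Tet1 fell by 0.66 and Dnmt3l by 1.15, while Dnmt3a rose by 0.43. Of 12 genes of Polycomb repressive complex 2, 2 fell and 1 rose (25% called), with a median of -0.01: Epop and Eed fell by 0.95 and 0.54 and Rbbp7 rose by 0.65. In the list of BAF, NuRD and LSD1 partners 3 of 20 fell, led by the LSD1 partner Rcor2 at -0.93, and none rose. The share called was 15%, where 16.9% of all tested genes were called and 8.91% called lower. The median was -0.07, or 0.089 when scaled to total counts.

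Markers of cells that such a culture could also hold were few. Of 14 fibroblast genes, as from feeder cells, 6 could be tested, 3 rose and 2 fell, with a median of 0.21, or of -0.0074 without H2O replicate 1; Thy1 rose by 1.4 and Fn1 fell by 0.69. Of 14 blood and endothelial genes 9 could be tested, 1 rose and 3 fell, with a median of -0.47. The shares called were 83.3% of tested fibroblast genes and 44.4% of tested blood and endothelial genes, against 16.9% of all tested genes. Summed over the 12 feeder markers set aside for this check, the share of all counts was 39.8 and 42.3 CPM in DOX and 33.8 and 30.3 CPM in H2O. Over 10 markers of ESCs it was 1523 and 1558 CPM in DOX and 2922 and 2808 CPM in H2O. Both sums are shares of total counts without TMM scaling. Gm26917 and Gm42418 took 36.9% and 30.3% of those totals in DOX and 37.9% and 43.0% in H2O, so small differences in these sums are not read. In such bulk samples fewer cells of a type and less RNA per cell cannot be told apart, and the part of cell mixture in these results was not tested.

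MicroRNA genes of ESCs were looked at after the values were seen, as their hairpins lie in the counted annotation. The miR-302 and miR-290 clusters make mature microRNAs, several of which share a seed in their 3p arms. Both clusters are known from pluripotent cells, the first more from primed and the second from naive cells. The RefSeq sequences (GRCm38.p6, the build also called mm10) are shown with the seed, bases 2 to 8, in capitals, for 3 of the miR-302 cluster on chromosome 3 and for 2 of the miR-290 cluster on chromosome 7.
miR-302b-3p: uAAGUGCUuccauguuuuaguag
miR-302c-3p: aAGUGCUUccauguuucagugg
miR-302d-3p: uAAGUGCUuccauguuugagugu
miR-294-3p: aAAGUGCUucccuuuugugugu
miR-295-3p: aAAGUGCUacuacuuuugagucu
The seed is AAGUGCU in miR-302b-3p, miR-302d-3p, miR-294-3p and miR-295-3p, and AGUGCUU, shifted by 1 base, in miR-302c-3p. Counts over the hairpins are nascent reads of the primary transcript, not mature microRNA. Mir302b had 2 and 0 counts in DOX, against 19 and 10 counts in H2O, Mir302c 0 and 0 against 10 and 7, and Mir302a 0 and 1 against 11 and 6. All 3 were called lower (edgeR adjusted p = 0.0072, 0.0055 and 0.013), where 8.91% of all tested genes were called lower. Mir302d, with 0 and 1 counts in DOX and 7 and 7 in H2O, was not tested. None of the 3 reached the minimum count of 10 in a DOX library of 16 h. They passed the filter through other libraries, so no support is drawn from these calls. The hairpins lie close together on the plus strand (chr3:127545228-127545689) and do not count as separate results. The miR-302 counts are few, and no fold change is given for them. In the miR-290 cluster none of 7 hairpins was called: Mir294 had 481 and 462 counts in DOX and 383 and 346 in H2O, which after scaling is a log2 fold change of 0.00 ± 0.15 (adjusted p = 0.99).

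Promoters were searched for the octamer ATGCAAAT on both strands (ATTTGCAT on the other strand), within 250 bases before to 50 after the RefSeq start. A promoter was matched for 11385 tested genes. The octamer was found in 22 of 987 promoters of genes called lower (2.23%), in 16 of 977 of genes called higher (1.64%), in 116 of 9421 of genes not called (1.23%) and in 154 of all 11385 (1.35%). A composite of the SOX motif CATTNT, 1 base of any kind and the POU motif ATGNNAAT was found in 1 of the 11385, and in none of those of called genes. The windows do not cover enhancers, and a match is a run of letters, not a bound site. 3 matches are shown, chosen after the values were seen: Zfp42 as a member of the naive list, Zfp296 as another ESC gene that fell and Gadd45g as the largest called increase with a match. The octamer is in capitals in the 250 bases before the start, at position -186, -111 and -103 from it in the same order (GRCm38.p6, chr8:43307010-43307259 minus strand, chr7:19577037-19577286 plus strand and chr13:51846425-51846674 plus strand).
Zfp42: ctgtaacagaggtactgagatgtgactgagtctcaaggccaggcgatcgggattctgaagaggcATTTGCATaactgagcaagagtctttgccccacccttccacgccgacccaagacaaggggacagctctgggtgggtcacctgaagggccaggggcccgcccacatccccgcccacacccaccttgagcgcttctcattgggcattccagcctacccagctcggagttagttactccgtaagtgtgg
Zfp296: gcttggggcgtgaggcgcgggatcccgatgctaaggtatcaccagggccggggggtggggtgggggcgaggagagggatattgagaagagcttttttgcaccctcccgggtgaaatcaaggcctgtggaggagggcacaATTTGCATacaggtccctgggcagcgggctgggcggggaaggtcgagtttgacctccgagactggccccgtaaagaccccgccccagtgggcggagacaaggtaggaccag
Gadd45g: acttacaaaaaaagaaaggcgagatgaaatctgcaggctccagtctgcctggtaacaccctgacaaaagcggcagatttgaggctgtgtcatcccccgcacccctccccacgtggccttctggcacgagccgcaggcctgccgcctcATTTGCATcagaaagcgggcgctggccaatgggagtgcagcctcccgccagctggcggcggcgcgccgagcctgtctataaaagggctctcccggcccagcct
Zfp42 was at 253 and 248 CPM in DOX, against 542 and 540 CPM in H2O (log2 fold change -1.11 ± 0.10, edgeR adjusted p = 0.00011). Zfp296, a zinc-finger protein of ESCs, was at 7.57 and 7.53 CPM in DOX, against 32.6 and 42.4 CPM in H2O (-2.31 ± 0.20, adjusted p = 7.6e-05). The same 8 letters thus stood before genes that changed in opposite directions.

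Genes that changed lay beside genes that changed the same way more often than tested genes as a whole did, though most did not. The nearest tested neighbour was also lower for 397 of the 1579 lower genes (25.1%), against 8.40% of all tested genes that had a lower nearest neighbour. For the 1407 higher genes it was also higher in 305 (21.7%), against 7.20% of all tested genes. Among neighbours over 10000 bp apart the shares were 19.4% of lower genes against 10.5%, and 21.4% of higher genes against 9.90%. Beside the pair Peg10 and Sgce, Kirrel2 had Nphs1, the nephrin gene, 624 bp away, which was at 4.37 and 4.60 CPM in DOX, against 16.7 and 15.6 CPM in H2O (log2 fold change -1.84 ± 0.12, edgeR adjusted p = 1.8e-05). Slc9b2 had Bdh2 at 3273 bp, with -1.74, and Kcnc1 had Myod1 at 17397 bp, which was also called higher. Close neighbours could also part: L1td1 fell, while Patj, which ends 7130 bp before it on the same strand, was at 56.3 and 58.8 CPM in DOX, against 18 and 17.4 CPM in H2O (1.70 ± 0.17, adjusted p = 0.00015). Cdx1 fell and Pdgfrb, 8950 bp away, rose by 0.86. These neighbours were picked from the table after the values were seen.

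**Figure D4:**
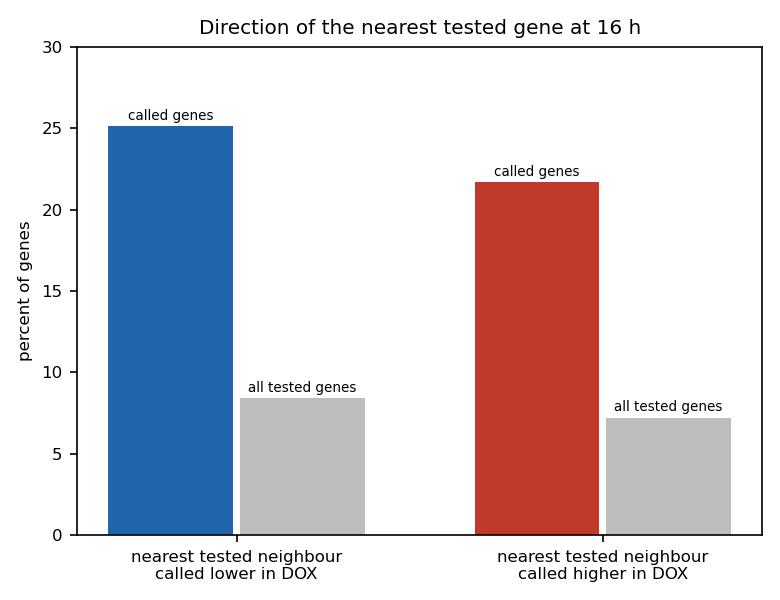
Percentage of genes (vertical axis, from 0) whose nearest tested neighbour was called lower (left pair) or higher (right pair) in DOX at 16 h. The coloured bar is for the genes called in that direction and the grey bar for all tested genes. The neighbour moved the same way for 25.1% of the lower and 21.7% of the higher genes, against 8.40% and 7.20% of all.

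At 24 h, in separate DOX and H2O libraries of the same line, 6531 of the 17713 genes (36.9%) were called. Of the 2986 genes called at 16 h, 2605 were called in the same direction at 24 h, 1370 lower and 1235 higher. Whatever the direction, genes called at both times were 39.9% of those called at 24 h, and 87.3% of those called at 16 h. Calls at both times rest on a spread fitted over the same libraries, so these shares are not those of independent tests. Pou5f1 had a log2 fold change of -1.83 ± 0.13 at 24 h and of -1.50 ± 0.13 at 16 h. Gata6 had 4.10 at 24 h and 2.48 at 16 h, Peg10 4.15 and 2.67 and Lefty2 -4.58 and -2.29, in the same order. Fst had 3 and 0 counts in DOX at 24 h, at or under the floor, so no fold change is given for it there. Tfcp2l1 had -1.45 at 24 h and -1.87 at 16 h, and Eomes, called at 16 h with 0.60, had 0.07 at 24 h. The difference between the responses was tested in the same edgeR model and called no gene (0 of 17713, 0%). 1952 genes had an unadjusted p under 0.05 in that test, and DESeq2 called 90. Without DOX replicate 1 or 2 of 24 h the same test called 204 or 3 genes, and with the 16 h replicates cross-paired as a block, an alternative chosen after seeing the data, it called 440.

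In the cell cycle lists more members were called at 24 h, as among all genes, of which 36.9% were called at 24 h and 16.9% at 16 h. In G2 and mitosis 18 of 22 genes were called at 24 h and none at 16 h, with a median log2 fold change of -0.44 at 24 h and -0.01 at 16 h. In DNA replication 27 of 31 were called at 24 h and 4 at 16 h, with medians of -0.60 and -0.19 in the same order. In the naive list 14 of 17 were called at either time, with a median of -1.57 at 24 h and of -1.11 at 16 h. For no member of these lists did the test of the difference pass the threshold.

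**Figure D5:**
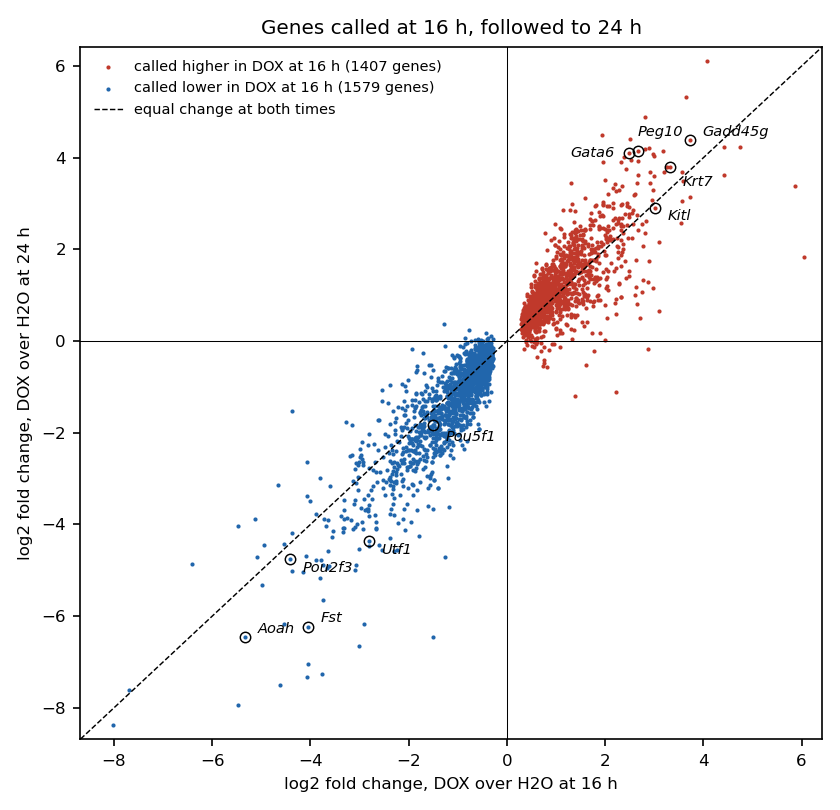
Log2 fold change of DOX over H2O at 24 h (vertical axis) against that at 16 h (horizontal axis) for the 2986 genes called at 16 h, red where higher and blue where lower in DOX at 16 h, with a dashed line of equal change. The points were selected on the horizontal axis, so their values at 16 h may lie too far from 0. Their values at 24 h come from other libraries. 2605 of them were called in the same direction at 24 h, but calls at both times rest on a shared fitted spread and are not independent. Gata6, Peg10 and Utf1 lie farther from 0 at 24 h than at 16 h.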

How the data were processed

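Nascent RNA from OCT4-tetOff mouse ESCs was labelled with 4SU for 30 min, extracted with Trizol LS and made into libraries with the KAPA RNA HyperPrep kit, per the labels' protocols. The authors deposited raw read counts per gene. STAR, featureCounts and mm10 appear in the submitters' processing notes, without versions, and neither a strand setting nor a rule for reads matching several genes is given. Of genes inside a host of the other strand only, 79 of 659 were at 0 counts, against all 279 inside a host of the same strand. The counting thus appears to have kept strands apart, while genes nested on the same strand received no reads.

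The 54752 genes of the deposited count table were filtered with filterByExpr (minimum count 10), which left 17713, and fitted in edgeR 4.0.16 (limma 3.58.1, R 4.3.3) with TMM factors, 1 mean per group and the quasi-likelihood test over all 8 OCT4-tetOff libraries, which held 21113158 to 26112435 counts. The contrasts were DOX over H2O at 16 h, the same at 24 h, and the difference of these. P-values were adjusted by Benjamini-Hochberg over all tested genes, with calls at 0.05. Gene lists were described by counts and medians, with no test. The members and lists were chosen with earlier results of these data known. Named genes are the 14 largest fold changes and the 6 largest CPM differences in each direction among those called that averaged 1 or more in log2 CPM and had an established symbol and no overlap of groups. To these come, with no minimum level, up to 4 called members of each list by smallest p, and a few pluripotency and lineage genes whatever their values. Some genes that this rule names are not reported here. Levels per kilobase divide CPM by the interval from start to end. The fitting was tested on simulated data. Alternatives were DESeq2 1.42.0, other scalings, a length trend, no filter, the 16 h libraries alone, a replicate block and leaving out each library. Figures were drawn with matplotlib 3.10.9.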

Additional observations from a re-analysis of the deposited data

How the results depend on the processing

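Against 2986 called at 16 h (1407 higher, 1579 lower), removing a trend with gene length called 5314 (2558 higher, 2756 lower), and the 4 libraries of 16 h alone called 6506 (3252 higher, 3254 lower). Scaling to total counts called 2392 higher and 1019 lower, and scaling to the total outside Gm26917 and Gm42418 called 1310 higher and 1322 lower. The test of the difference between 24 h and 16 h, with 0 calls, had 90 with DESeq2, 50 with total counts, 628 with the length trend removed and 457 without the filter on low counts. Leaving out each library in turn gave 1327 to 3857 called, 573 to 1855 higher, 726 to 2002 lower, and 0 to 204 for the difference. A lone library was then assumed to vary like the other groups. The causes were not tested.

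List medians near 0 changed sign. With total counts the Hippo list had 0.0050, BAF, NuRD and LSD1 partners 0.089, ribosome biogenesis 0.049 and mitochondrially encoded transcripts 0.086, the last also 0.061 with the length trend removed. The feeder marker list ranged from -0.0074 to 0.62 when 1 library was left out. Of 2096 pairs of a named gene and an alternative, 1941 stayed on the same side of the threshold in the same direction, 143 lost the call, 12 gained it and 0 reversed. Of the 131 named genes, 129 of them called, 91 did so under every alternative, and 113 when those that leave out 1 library are set aside. These counts cover only genes picked by the naming rule. Other genes reported here, such as Klf2, Lin28a and Platr11, are not in them.

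With the replicate number as a block 3464 genes were called (1677 higher, 1787 lower), and 0 for the difference. The replicate numbers did not pair the DOX and H2O libraries of 16 h, whose deviations correlated at -0.113 across genes, against 0.418 at 24 h. The crossed pairing of the 16 h libraries, chosen after seeing the data, called 4504 genes (2210 higher, 2294 lower), and 440 for the difference.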

Other observations

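The Platr genes, long noncoding RNAs named for their association with pluripotency, were looked at after their values were seen. Of 24 tested, 11 were called lower in DOX at 16 h, none was called higher and 13 were not called, where 8.91% of all tested genes were called lower, and the median log2 fold change was -0.63, beside 0.00 over all tested genes. Platr11 was at 1.46 and 1.83 CPM in DOX, against 11.8 and 14.1 CPM in H2O (-2.96 ± 0.18, edgeR adjusted p = 1.4e-05). Platr22 was at 14.8 and 14.5 CPM in DOX, against 33.3 and 29.9 CPM in H2O, a log2 fold change of -1.11.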
